A study of Rattus norvegicus with 4 samples.

Results

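The 10 genes described here, Bmal1 (listed as Arntl in older annotation), Clock, Per1, Per2, Per3, Cry2, Dbp, Nr1d1, Nr1d2 and Bhlhe40, belong to the circadian clock and were followed in rat PC12 cells with and without a MAX plasmid. Their probes were found by the RefSeq accession that the array files give for each probe: 11 probes of 41012 on the array matched, 2 of them to Per3, and all 10 genes had a probe. They are 10 of 36864 genes or other identifiers on the array. The genes were chosen by their function and by log2 differences between MAX vector and empty vector on these same 4 arrays, so that difference is given as a description and no test of it is read for these genes. PC12 is a rat line from a pheochromocytoma, a tumour of chromaffin cells that makes catecholamines, and is known to lack a functional MAX protein. One line was transfected with a plasmid that codes for MAX and the other with an empty vector, both by nucleofection and both under selection with the agent labelled E418. Each line was sampled at passages 8 and 13, so each group holds 2 arrays of 1 transfected line. The spread between arrays is thus a spread between passages and not between independent transfections. The 2 MAX vector arrays also lay on different slides, so passage and slide cannot be told apart in their spread.

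In mammals the clock is a loop of transcription. BMAL1 and CLOCK pair and bind E-box sequences in DNA to activate the Per and Cry genes, whose proteins then repress that pair. A second loop runs through Nr1d1 and Nr1d2, whose REV-ERB proteins repress Bmal1 at ROR elements, and DBP carries the rhythm to output genes through D-boxes. MAX, as the partner of MYC proteins, binds the same core E-box as BMAL1 and CLOCK. The clocks of cells in one dish drift out of step unless they are synchronised, and the labels name no synchronising step and no hour of harvest.

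The promoters of 4 members show which of these elements lie close to the start of the gene. RefSeq windows of build GRCr8, from 250 bases before to 50 bases after each start, were searched on both strands for the E-box CACGTG, its variant CACGTT, the core AGGTCA of ROR elements, the D-box TTATGTAA and the cAMP response element TGACGTCA. All 10 members had a window, 12 in all since Clock and Nr1d1 have 2 each. Nr1d1 is shown because its level differed most, Bmal1 because it had the next largest difference, Bhlhe40 because it is the other member with CACGTG, and Per2 because it held both CACGTT and the D-box. Capitals mark every match to one of the 5 motifs, and the strands and positions are chr10:84229405-84229704 minus for Nr1d1 (1 of its 2 windows), chr1:176766078-176766377 plus for Bmal1, chr4:143174200-143174499 plus for Bhlhe40 and chr9:99496944-99497243 minus for Per2.
Nr1d1: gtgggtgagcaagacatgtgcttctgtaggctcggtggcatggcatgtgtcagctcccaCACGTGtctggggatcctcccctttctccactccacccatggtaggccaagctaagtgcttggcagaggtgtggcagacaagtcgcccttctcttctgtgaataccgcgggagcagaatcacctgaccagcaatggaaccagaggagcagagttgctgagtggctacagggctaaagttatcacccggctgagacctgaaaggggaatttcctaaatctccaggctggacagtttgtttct
Bmal1: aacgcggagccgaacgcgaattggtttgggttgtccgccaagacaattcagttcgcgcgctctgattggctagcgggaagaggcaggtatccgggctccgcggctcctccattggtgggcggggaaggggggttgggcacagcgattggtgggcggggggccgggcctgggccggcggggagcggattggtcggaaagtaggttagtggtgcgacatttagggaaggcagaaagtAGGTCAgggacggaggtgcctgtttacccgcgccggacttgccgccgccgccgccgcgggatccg
Bhlhe40: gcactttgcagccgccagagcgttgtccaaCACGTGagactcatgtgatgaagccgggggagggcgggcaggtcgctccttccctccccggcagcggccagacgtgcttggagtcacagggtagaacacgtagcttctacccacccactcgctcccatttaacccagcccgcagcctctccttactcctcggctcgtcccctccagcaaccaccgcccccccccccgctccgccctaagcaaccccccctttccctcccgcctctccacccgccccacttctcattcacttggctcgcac
Per2: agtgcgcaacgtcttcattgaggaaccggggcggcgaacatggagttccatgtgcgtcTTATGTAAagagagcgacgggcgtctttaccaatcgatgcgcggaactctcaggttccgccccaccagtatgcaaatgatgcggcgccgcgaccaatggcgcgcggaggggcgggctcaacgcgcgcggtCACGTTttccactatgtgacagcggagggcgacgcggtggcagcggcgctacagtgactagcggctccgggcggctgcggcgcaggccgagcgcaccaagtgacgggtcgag
The E-box CACGTG stood in 2 of the 12 member windows, those of Nr1d1 and Bhlhe40 printed above, while 6.42% of all 33469 windows held it. In Nr1d1 it began 191 bases before the start and in Bhlhe40 220 bases before it. The variant CACGTT stood in 3 of the 12, those of Per2 and Cry2 and the other Nr1d1 window, against 4.83% of all windows. AGGTCA stood in 2 of the 12, in Bmal1, 15 bases before its start, and in Nr1d2, against 16.2% of all windows. The D-box stood in 1 of the 12, that of Per2 (0.893% of all windows), and TGACGTCA in 0 of the 12 windows (1.83% of all). These are matches of letters, and elements farther from the start lie outside the windows.

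Each array measured 41012 probes in 1 colour, and between 64.4% and 71.5% of them were well above background, with 0 saturated spots. Values below are log2 processed intensity relative to the 75th percentile of the same array, so 0 is the level of that percentile. Tests covered 25356 genes or other identifiers, each by its brightest probe, and 6316 of them carried a gene symbol. They are called genes below, and an identifier without a symbol counted on its own, so a gene can count more than once. Of the 25356, 213 (0.84%) passed an adjusted p of 0.05 in limma. The MAX vector replicate 1 array came from another slide than the other 3 arrays, so values within the slide of those 3 arrays are given for each member. The probe named Max stayed near background on all 4 arrays, at -7.61 and -7.94 with MAX vector and -8.36 and -8.07 with empty vector. The sequence of this probe was not available, so whether it can read the MAX transcript of the plasmid is unknown. Of 9 chromaffin markers with a named probe, 7 were well above background on all 4 arrays, Th and Ddc among them, while Dbh and Slc18a1 missed it on 1 MAX vector array. All 4 arrays were labelled as PC12 cells, so signal from markers of other cells does not show that such cells were present. Of those with a named probe, 4 of 4 fibroblast and 3 of 4 macrophage and leukocyte genes were well above background on all 4 arrays. So were 2 of 4 Schwann and 1 of 2 endothelial genes, while Aif1, S100b and Pecam1 were so on 0 arrays. The summed intensity of the chromaffin markers, before scaling, was 5873 and 6596 with MAX vector, against 12769 and 11202 with empty vector. Most of it was Ddc, at 4574 and 5117 with MAX vector, against 11429 and 10027 with empty vector. Th went the other way, at 665 and 704 with MAX vector, against 182 and 143 with empty vector. Of the 9 markers, 2 had a positive and 7 a negative log2 fold change. Th passed as higher and Ddc as lower in limma, where 0.84% of all genes passed. The summed intensity of the macrophage and leukocyte markers was 5344 and 5862 with MAX vector, against 3397 and 3411 with empty vector. Most of it was Cd14, at 4957 and 5097 with MAX vector, against 2965 and 2982 with empty vector. Both Cd68 and Csf1r overlapped between the groups. For the endothelial markers the sum was 45.0 and 73.4 with MAX vector, against 18.5 and 17.1 with empty vector. Most of that was Kdr, at 42.4 and 71.3 with MAX vector, against 16.8 and 12.6 with empty vector. The summed fibroblast and Schwann signals overlapped between the groups. The fibroblast sum was mostly Col3a1, while the dimmer Lum had a log2 fold change of -1.19 ± 0.27 and Dcn 0.75 ± 0.13. The part of these shifts in the values of the clock genes was not tested.

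All 10 members were well above background on all 4 arrays. Nr1d1 and Bmal1 had the largest differences, both higher with MAX vector, and the 3 Per genes (Per3 by its brighter probe) and Cry2 lay within 0.13 log2 units of the empty vector group. In 6 members the groups did not overlap, where 50.2% of all genes had groups that did not overlap. The members' median log2 fold change was 0.09, against -0.02 over all genes tested. Their median absolute log2 fold change was 0.13, against 0.16 over all genes.

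**Figure D1:**
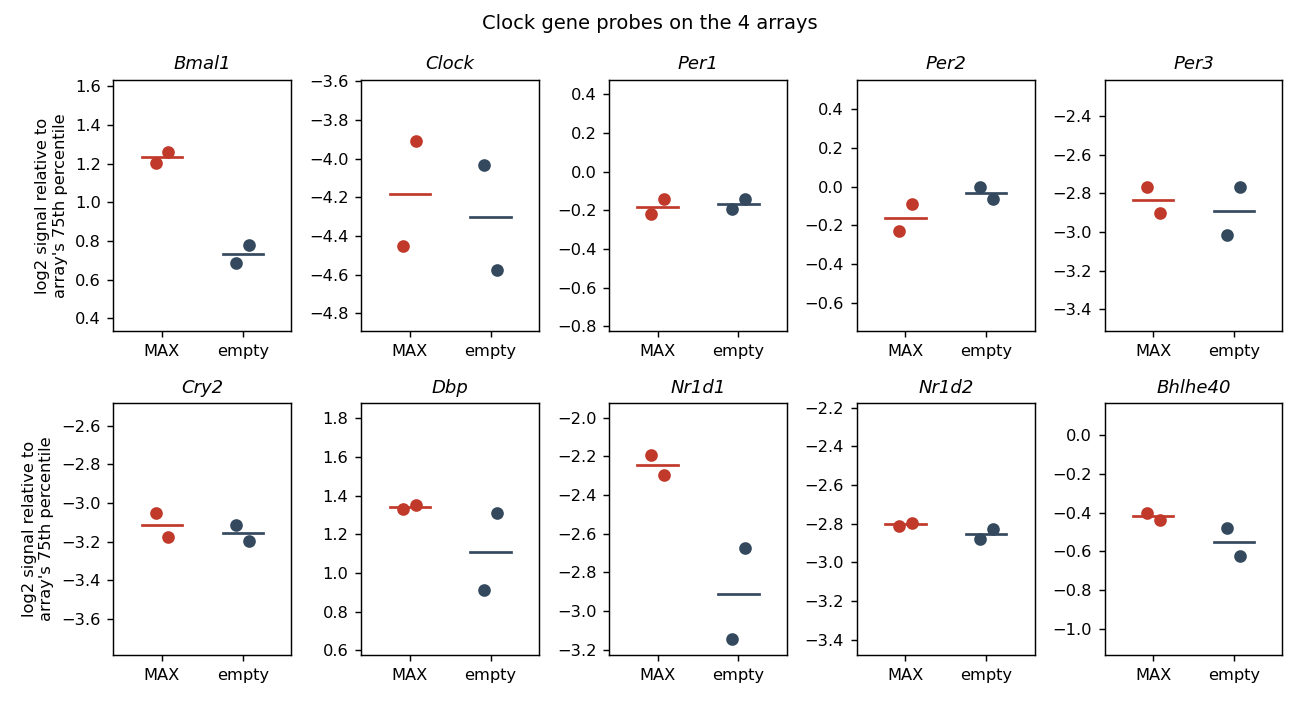
Log2 signal of each clock gene's probe relative to the array's 75th percentile (y axis, the same span of values in every panel), with 2 MAX vector arrays on the left and 2 empty vector arrays on the right of each panel; points are arrays and lines are group means. Bmal1 and Nr1d1 show both MAX vector arrays above both empty vector arrays by the widest margins, and Clock shows overlapping groups with wide spread.

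Of the activators, Bmal1, which encodes the DNA-binding partner of CLOCK, had log2 signals of 1.21 and 1.26 on the MAX vector arrays, against 0.69 and 0.78 on the empty vector arrays. Both MAX vector arrays were higher than both empty vector arrays, and the arrays of a group lay close together. The log2 fold change was 0.50 ± 0.09 (SE, n = 2 arrays per group), or 1.41-fold, and it was 0.53 among the 3 arrays of 1 slide. A total of 87.2% of the genes tested had a smaller absolute difference.

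Clock, which encodes the partner of BMAL1, had -4.45 and -3.91 with MAX vector, against -4.03 and -4.58 with empty vector. The groups overlapped, with 1 high and 1 low array in each. The log2 fold change was 0.12 ± 0.29, and its sign depended on which array was used: it was -0.15 without empty vector replicate 2, -0.15 without MAX vector replicate 2 and 0.40 without empty vector replicate 1. Within the slide of both groups it was 0.39. The Clock probe was dim, at 27.0 and 44.3 intensity units with MAX vector and 42.8 and 25.6 with empty vector.

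Of the repressors, Per1, a period gene that in other cells is quickly induced by cAMP and glucocorticoids, had -0.22 and -0.14 with MAX vector, against -0.19 and -0.14 with empty vector. The ranges overlapped almost entirely, and the log2 fold change was -0.01 ± 0.09, with 0.02 within the slide of both groups. Only 5.21% of the genes tested had a smaller absolute difference. Per2, another period gene and a core brake on the BMAL1 and CLOCK pair, had -0.23 and -0.09 with MAX vector, against -0.00 and -0.06 with empty vector. Both MAX vector arrays were lower, but the gap between the nearest arrays of the 2 groups was narrower than the gap between the MAX vector arrays. The log2 fold change was -0.13 ± 0.10, and -0.06 within the slide that holds both groups.

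Per3, the third period gene, had 2 probes. The brighter one had -2.77 and -2.90 with MAX vector, against -3.01 and -2.77 with empty vector, and its groups overlapped (log2 fold change 0.06 ± 0.13, and -0.01 within the slide of both groups). The dimmer one had -4.95 and -4.68 with MAX vector, against -4.72 and -4.54 with empty vector, a difference of -0.18. The probes thus differed in sign, and neither separated the groups. Cry2, which encodes a cryptochrome that binds and represses the activator pair, had -3.05 and -3.18 with MAX vector, against -3.11 and -3.20 with empty vector. Its groups overlapped too, with a log2 fold change of 0.04 ± 0.10, and -0.02 within the slide of both groups.

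Of the second loop and output genes, Nr1d1, which encodes the repressor REV-ERB alpha, had -2.19 and -2.29 with MAX vector, against -3.15 and -2.68 with empty vector. Both MAX vector arrays were higher than both empty vector arrays, and the empty vector arrays lay farther apart than the MAX vector arrays. The log2 fold change was 0.67 ± 0.19 (SE, n = 2 arrays per group), or 1.59-fold, and 92.3% of the genes tested had a smaller absolute difference. It was 0.43 without empty vector replicate 1 and 0.90 without empty vector replicate 2. With normexp, a background correction of median spot intensity that adds 50 intensity units to every signal, it was 0.36. The cause of that lower value was not tested. Within the slide of both groups the log2 fold change of Nr1d1 was 0.62. The Nr1d1 window with CACGTG is the one printed above.

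Nr1d2, which encodes the related repressor REV-ERB beta, had -2.81 and -2.80 with MAX vector, against -2.88 and -2.83 with empty vector. The arrays of each group were close together and the groups did not overlap, yet the log2 fold change was only 0.05 ± 0.09. Dbp, which encodes a transcription factor that acts through D-boxes, had 1.33 and 1.35 with MAX vector, against 0.91 and 1.31 with empty vector. Both MAX vector arrays were higher, but empty vector replicate 2 lay close to them. The log2 fold change of Dbp was 0.23 ± 0.17, which was 0.03 without empty vector replicate 1 and 0.43 without empty vector replicate 2. Bhlhe40, which encodes DEC1, a repressor that competes for E-boxes, had -0.40 and -0.44 with MAX vector, against -0.48 and -0.62 with empty vector. Its groups did not overlap, and the log2 fold change was 0.13 ± 0.10, with 0.06 without empty vector replicate 2 and 0.22 with normexp. Within the slide of both groups Nr1d2, Dbp and Bhlhe40 had 0.06, 0.24 and 0.12.

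**Figure D2:**
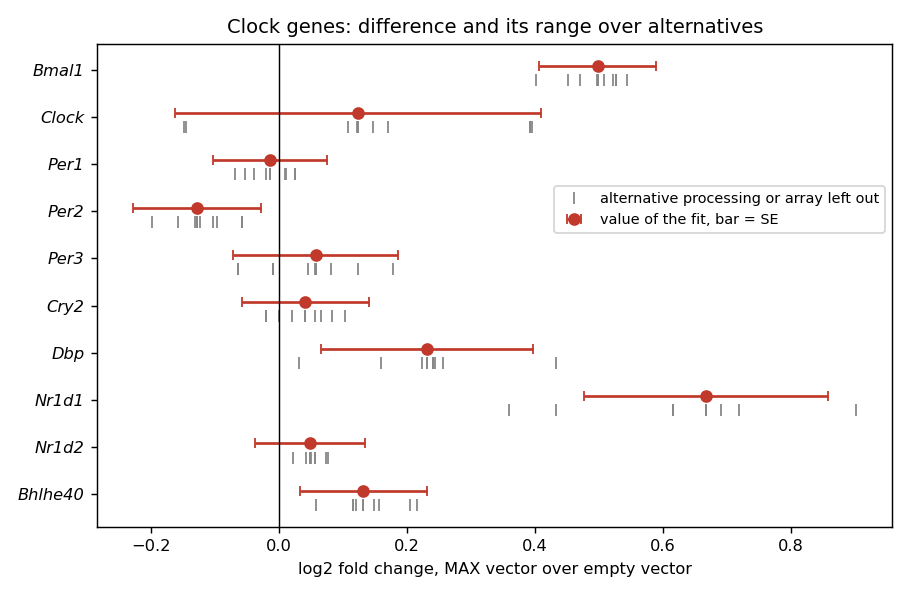
Log2 fold change of each clock gene, MAX vector over empty vector (x axis; points with bars are the fitted value and its SE, grey ticks are the values under 14 alternatives). Bmal1 stayed between 0.40 and 0.54 and Nr1d1 between 0.36 and 0.90, while the ticks of Clock, Per1, Per3 and Cry2 lie on both sides of 0.

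The difference between the 2 arrays of a group was uneven among the members. In the MAX vector group the 2 arrays differed by a median of 0.09 log2 units over the members, and in the empty vector group by 0.12. Over all genes tested these medians were 0.15 and 0.12. Only the MAX vector arrays lay on different slides, so their differences also hold any difference between slides. Clock differed by 0.54 between the MAX vector arrays and by 0.55 between the empty vector arrays, more than 86.9% and 94.7% of all genes. Dbp differed by 0.02 between the MAX vector arrays and by 0.40 between the empty vector arrays, and Nr1d1 by 0.10 and 0.47. In both genes empty vector replicate 1 was the lowest of the 4 arrays. For Dbp and Nr1d1 the difference between the empty vector arrays exceeded that of 90.2% and 92.7% of all genes. With 2 arrays a group, no test of these spreads was made.

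**Figure D3:**
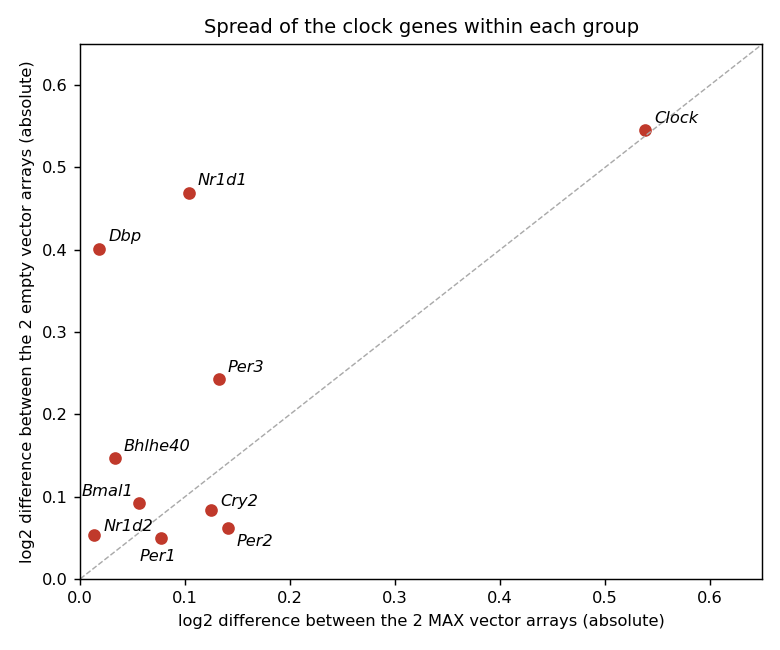
Absolute log2 difference between the 2 MAX vector arrays (x axis) and between the 2 empty vector arrays (y axis) for each clock gene; the dashed line marks equal values. Clock lies high on both axes, at 0.54 and 0.55, and Dbp and Nr1d1 lie high on the empty vector axis alone, at 0.40 and 0.47.

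A wider list held 45 further genes of the clock: other core factors, the kinases, ligases and cofactors that act on them, and output genes. Named probes were found for 28 of these, and 26 passed the filter on dim probes. Over all genes, 0 of the 26 passed an adjusted p of 0.05 in limma (0.84% of all genes), and 3 had an unadjusted p under 0.05 (16.1% of all genes), 1 of them higher (7.93% of all genes) and 2 lower (8.21% of all genes). Their median log2 fold change was -0.07, against -0.02 over all genes, and 17 of 26 had groups that did not overlap (50.2% of all genes). In simulated data the fit recovered 2.09% of 2-fold changes, so the 0 calls do not show that these genes were unchanged.

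Bhlhe41, which encodes DEC2, the paralog of DEC1, had 3.93 and 4.07 with MAX vector, against 3.44 and 3.58 with empty vector. Both MAX vector arrays were higher, with a log2 fold change of 0.49 ± 0.11 (adjusted p = 0.175 in limma). Its dimmer probe also lay higher, at -2.38 and -2.15 with MAX vector, against -3.24 and -3.13 with empty vector, a difference of 0.92. Its mean over both probes had 0.71 (adjusted p = 0.115 in limma). The differences of Bhlhe41 and Bhlhe40 were not tested against each other. Cry1, the paralog of Cry2, had 2.62 and 2.59 with MAX vector, against 2.64 and 2.75 with empty vector, a log2 fold change of -0.09 ± 0.09. Tef, a factor of the DBP family, had 0.21 ± 0.13, and Nfil3, a repressor that binds D-boxes, had 0.04 ± 0.10. Timeless, which in mammals works mainly in DNA replication, had -0.35 ± 0.13.

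Among the 13 measured kinases, ligases and cofactors the log2 fold changes ran from -0.50 to 0.17. Usp2, which encodes a deubiquitinase that acts on clock proteins, was the lowest, with -1.06 and -1.23 with MAX vector, against -0.62 and -0.67 with empty vector. The groups of Usp2 did not overlap, and its log2 fold change was -0.50 ± 0.10 (adjusted p = 0.163 in limma). Prkaa2, which encodes a catalytic subunit of AMP-activated kinase, had -0.27 ± 0.09 (adjusted p = 0.291 in limma), and its paralog Prkaa1 had -0.16 ± 0.11. The casein kinase genes Csnk1d and Csnk1e, whose products mark PER proteins for degradation, had 0.17 ± 0.12 and -0.07 ± 0.10. Btrc, which encodes a ubiquitin ligase subunit that recognises phosphorylated PER, had 0.15 ± 0.10, and Crebbp, a coactivator gene, had 0.14 ± 0.13 by its brightest probe, with 0.29 and -0.04 by the others.

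Among the 8 measured output genes the log2 fold changes ran from -0.29 to 0.23, and 0 had an unadjusted p under 0.05 in limma (16.1% of all genes). Avp, the vasopressin gene, had -0.29 ± 0.28, and its probe missed the background limit on MAX vector replicate 1. Its value was 0.08 without that array and -0.66 without MAX vector replicate 2. Tspan4, a tetraspanin gene, had 0.23 ± 0.14, and Wee1, which encodes a kinase that delays mitosis, had -0.19 ± 0.09. Por and Herpud1 had 0.14 ± 0.11 and -0.11 ± 0.12, and the dimmer probe of Herpud1 had 0.06. Nampt, which encodes the rate-limiting enzyme of NAD salvage, had -0.10 ± 0.10 by its brighter probe and 0.01 by the other.

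**Figure D4:**
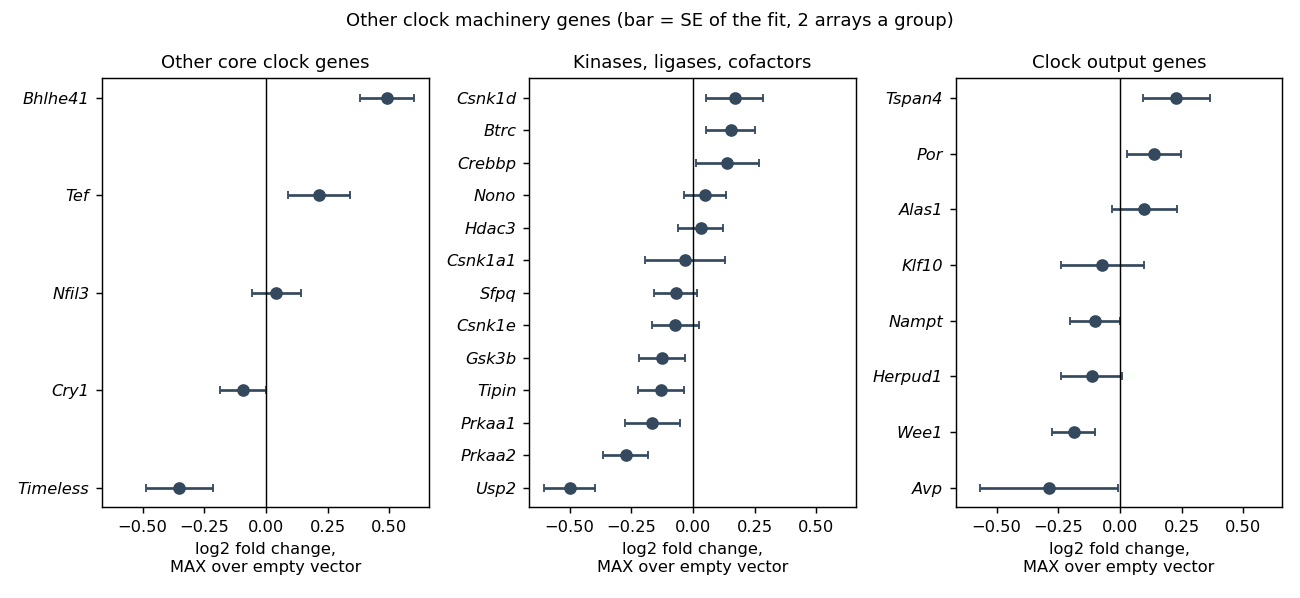
Log2 fold change, MAX vector over empty vector (x axis, bars are the SE), of 26 further clock genes in 3 panels of other core factors, of kinases, ligases and cofactors, and of output genes. Bhlhe41 lies highest at 0.49 and Usp2 lowest at -0.50.

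Genes of other basic helix-loop-helix leucine zipper proteins, which bind E-boxes too, held 0 calls in limma among 10 measured (0.84% of all genes). An unadjusted p under 0.05 was found for 2 of the 10 (16.1% of all genes), both lower (8.21% of all genes). Mycn had -0.48 ± 0.16 by its brighter probe. Its dimmer probe had -0.95 but was not well above background on either MAX vector array. Mxd3, which encodes a repressor that pairs with MAX, had -0.35 ± 0.08. Mlxipl, a glucose-responsive factor gene, had -0.42 ± 0.22, and Usf1, which encodes an E-box factor found in most cells, had 0.25 ± 0.12. Of 12 measured genes that carry or report signals known to set the clock, 0 passed in limma (0.84% of all genes). An unadjusted p under 0.05 was found for 3 of the 12 (16.1% of all genes), 1 higher (7.93% of all genes) and 2 lower (8.21% of all genes). Nr4a1, an immediate early gene for an orphan receptor, had 2.93 and 3.15 with MAX vector, against 1.98 and 2.32 with empty vector (0.90 ± 0.17, adjusted p = 0.138 in limma). Fos, another immediate early gene, had 0.23 and 0.10 with MAX vector, against 0.90 and 1.05 with empty vector (-0.81 ± 0.11, adjusted p = 0.0891 in limma). Dusp1, which encodes a phosphatase of MAP kinases, had -0.80 ± 0.09 and Egr1 had 0.49 ± 0.19. Immediate early genes thus lay on both sides of 0, and with normexp, where 3.15% of all genes passed, Nr4a1 was called higher and Fos and Dusp1 lower in limma. Fos and Dusp1 also passed when only probes well above background on all arrays were used, where 2.26% of all genes did. These 2 settings called more genes than the main fit. With no filter on dim probes, or with the replicate number as a block, 0 of all genes passed.

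Nr1d1 had the largest absolute difference of the members, and its pattern over the 4 arrays was set against 5777 other genes with a symbol that were well above background on every array. Likeness was the root mean square difference of log2 values over the 4 arrays, after each gene was centred on its own mean. The nearest gene was Gfi1, which encodes a zinc finger repressor, with a difference of 0.018. It was followed by Junb, an immediate early gene, at 0.042, Alpl, the tissue-nonspecific alkaline phosphatase gene, at 0.059, Slc44a4, a transporter gene, at 0.060 and Coq8a, a gene of coenzyme Q synthesis, at 0.070. Like Nr1d1, all 5 were lowest in empty vector replicate 1. With 4 arrays this likeness is a description of those arrays alone.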

How the data were processed

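RNA of 4 cultures was hybridised to 1-colour (Cy3) Agilent rat arrays. The deposited scanner files hold spot intensity, background-subtracted and detrended within each array by Feature Extraction 10.7.3.1, per the file headers (10.7 in the submitters' processing notes), with annotation of build rn4. The authors also deposited a table of log2 values. Differences between its columns matched those computed here (Pearson r = 1), so scale and direction are known; column medians were -0.033, -0.011, -0.005 and -0.007, and the baseline each probe is centred on stays unknown.

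Control spots and spots with an outlier flag were left out, with 89 probes lost. Log2 processed intensity was averaged over a probe's spots, minus the array's 75th percentile over probes. Probes well above background on at least 2 arrays entered (28564), with the brightest per gene used. Symbols came from RefSeq accessions matched to the GRCr8 gene table, for 10746 of 41012 probes. limma 3.58.1 in R 4.3.3 compared the groups (3.94 degrees of freedom in all), adjusted by Benjamini-Hochberg over 25356 genes at 0.05; ± gives the SE of log2 fold changes. The number of arrays limits the precision. In a self-test on simulated data the fit recovered 2.09% of 2-fold changes, 63.6% of 4-fold changes and 90% of 16-fold changes. A count of 0 calls in a list therefore says little about changes of 2-fold or less.

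The members and lists were chosen with earlier results of these data known. All members are named; of the other clock lists, genes that passed and up to 6 with the largest absolute difference; of the E-box factors and clock signals, up to 4 each; and the 5 genes nearest to Nr1d1. A gene that the rule names is not reported here and was left out of its list. Csnk1e, named beside its paralog, was picked with its values in view. The files hold no mean spot signal, so normexp (offset 50) used median spot and background intensity. Alternatives covered scaling, background, filter, probe choice, the deposited table, slide, replicate number and each array left out.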

Additional observations from a re-analysis of the deposited data

How the results depend on the processing

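Of the clock members, Bmal1, Per2, Dbp, Nr1d1, Nr1d2 and Bhlhe40 kept their sign in all 14, and Clock, Per1, Per3 and Cry2 did not. The median of the members ran from 0.06 to 0.11 over the 14, and that of the 26 further clock genes from -0.11 to -0.01. Both moved by less than the spread between arrays. Leaving out 1 of 2 arrays can hardly move them by more than that, and the replicate block cannot move them at all. In limma 0 of the 26 passed under any of the 14, but 4 of these (no filter on dim probes, the replicate number as a block, and either empty vector array left out) called 0 of all genes. The number of all genes that passed was 213, against 541 with median scaling, 799 with normexp, 0 with no filter on dim probes and 515 with only probes well above background on all arrays. It was 8 with slide as a block and 8 on 1 slide alone, since both use the same 3 arrays. With arrays left out it ran from 0, without empty vector replicate 1 or 2, to 144, without MAX vector replicate 2, with 8 without MAX vector replicate 1. With the replicate number as a block it was 0. The deviations of same-numbered arrays from their group means had a correlation of -0.018 over 25356 genes. With 2 arrays per group and MAX vector replicate 1 alone on another slide, this cannot show whether same-numbered arrays share a passage. The cause of these moves was not tested. Where a group keeps 1 array, that array is assumed to vary like the other group. The number of arrays limits the precision of every value.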
